A study of Mus musculus with 5 samples.

Results

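The genes described here are the constant-region genes of the immunoglobulin loci and *Jchain*, which encodes the joining chain, in RNA-seq of bone marrow-derived dendritic cells (BMDCs) with and without overexpression of *Irf8*. They were taken from the deposited list of genes that differed between *Irf8*-OE and control BMDCs, as every row with the gene type IG_C_gene and the row named *Jchain*. The list itself was selected on the normalized counts of *Irf8*-OE against control. That gave 10 of the 1355 listed genes, namely 6 heavy-chain genes (*Ighm*, *Ighg3*, *Ighg1*, *Ighg2b*, *Ighg2c* and *Igha*), 3 light-chain genes (*Igkc*, *Iglc1* and *Iglc2*) and *Jchain*. GENCODE vM21 holds 13 mouse genes of this type, of which *Ighd*, *Ighe*, *Iglc3* and *Iglc4* were not listed and are not analysed here. Because that selection used these same 5 samples, the values of *Irf8*-OE against control are given as a description. No p-value is given for a member, and counts of members that passed a threshold support nothing.

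The series held 3 *Irf8*-OE samples and 2 control samples of cultured mouse bone marrow. *Irf8*-OE mice carried Irf8 CAG-LSL, a Flag-tagged *Irf8* cassette knocked into the H11 locus behind a stop that Cre removes, together with Itgax Cre, in which the promoter of the CD11c gene drives Cre. For the controls the labels say wild type, whereas the study's text names Irf8 CAG-LSL. All mice were on a C57BL/6 background, were 8 weeks old and were given as male. Marrow of both groups was grown in 200 ng/ml Flt3L and 5 ng/ml GM-CSF, replated on day 9 and collected as non-adherent cells on days 15 to 16, and the labels add TNF-alpha stimulation, at 20 ng/ml, for every sample. No source states whether the samples came from separate mice. The cells were not sorted before sequencing as far as the sources tell, so in these bulk samples fewer cells of a type and less RNA per cell cannot be told apart.

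An antibody is built of paired heavy and light chains, and the constant region of the heavy chain sets its class. A B cell first joins its variable exon to *Ighm*, the mu gene, and may later switch to a gamma, epsilon or alpha gene further along the locus by deleting the DNA between. Plasma cells, the antibody-secreting end of this lineage, hold very large amounts of these transcripts. The joining chain links IgM or IgA monomers into polymers, through a cysteine in the tailpiece of the secreted mu and alpha chains, and is not used by IgG. Dendritic cells present antigen and are not known as antibody producers.

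The ends of the secreted heavy chains are shown because they separate the chains that the joining chain can link from those it cannot. Each line gives the last 54 coding bases before the stop codon of the secreted transcript in GENCODE vM21 (GRCm38, minus strand), and capitals mark the penultimate codon where it encodes cysteine. The intervals on chromosome 12 are chr12:113420870-113420923 for *Ighm*, chr12:113258771-113258824 for *Igha*, chr12:113328979-113329032 for *Ighg1*, chr12:113306392-113306445 for *Ighg2b*, chr12:113287392-113287445 for *Ighg2c* and chr12:113359668-113359721 for *Ighg3*.
Ighm: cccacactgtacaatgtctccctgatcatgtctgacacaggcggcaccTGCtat
Igha: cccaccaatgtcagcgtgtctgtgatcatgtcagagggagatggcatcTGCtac
Ighg1: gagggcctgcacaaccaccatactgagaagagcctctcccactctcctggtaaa
Ighg2b: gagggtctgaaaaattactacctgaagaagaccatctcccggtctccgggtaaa
Ighg2c: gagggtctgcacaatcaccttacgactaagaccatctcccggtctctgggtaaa
Ighg3: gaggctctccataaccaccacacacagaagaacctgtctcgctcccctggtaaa
The mu and alpha ends carried the cysteine codon and were identical at 35 of the 54 positions. None of the 4 gamma ends carried it.

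The overexpressed gene itself, *Irf8*, reached 7141, 6519 and 6021 normalized counts in *Irf8*-OE BMDCs, where the controls had 2835 and 2747. Normalized counts are reads per gene divided by 1 scaling factor per sample, and every listed value was a whole multiple of the sample's step, from which reads were counted back. In *Irf8*-OE sample 3 that step, 1.004, is so near 1 that whole multiples say little about it, so all reads, shares and intervals of that sample rest on the step being right. Listed genes held 646123 to 1062127 reads per sample, a total that leaves out all other genes of the libraries. A floor of 3 reads, which covers counting error only, was worth 2.80 to 3.37 normalized counts. Sex-linked genes went against the label that all mice were male. *Xist* had at least 10772 normalized counts in each *Irf8*-OE sample but no more than 1.12 in either control. In contrast, 4 Y-linked genes had 0 reads in *Irf8*-OE and at least 484 normalized counts in each control. The sex that these genes show thus coincided with the groups. Sex and *Irf8* overexpression therefore cannot be told apart in any difference between the groups given here. Of 8 genes that mark conventional dendritic cells, only *Itgae*, which encodes CD103, and *Cd24a* were listed, so the labelled cell type could not be checked on the others. *Itgae* stood at 164, 144 and 178 normalized counts in *Irf8*-OE against 50.6 and 52.8. *Cd24a* went the other way, with 3564, 3958 and 4042 against 9688 and 10426.

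Together the 10 genes took 5917, 5574 and 5914 reads in the *Irf8*-OE samples, or 0.888%, 0.809% and 0.915% of the reads on listed genes. In the controls they took 201 and 290 reads, or 0.022% and 0.027%. All 10 genes were higher in every *Irf8*-OE sample than in either control, which held for 58.8% of the listed genes. All 10 also passed limma at an adjusted p under 0.05 and a log2 fold change above 1, as 58.1% of the listed genes did in this direction and 99.1% in either. The rule drew on this same contrast, so neither count is a result. The fitted log2 difference on the log2(normalized counts + 1) scale had a median of 5.95 over the 10 genes and 1.14 over all listed genes. A further median of the 10 used plain log2 ratios, without the added count of 1. It took the lower bound for the 5 genes with 0 control reads. For *Ighm*, *Igkc* and *Jchain* it took the ratio of means, and for *Igha* and *Ighg2b* that of pooled reads. That median was 4.48, on a scale other than that of the fitted values.

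**Figure D1:**
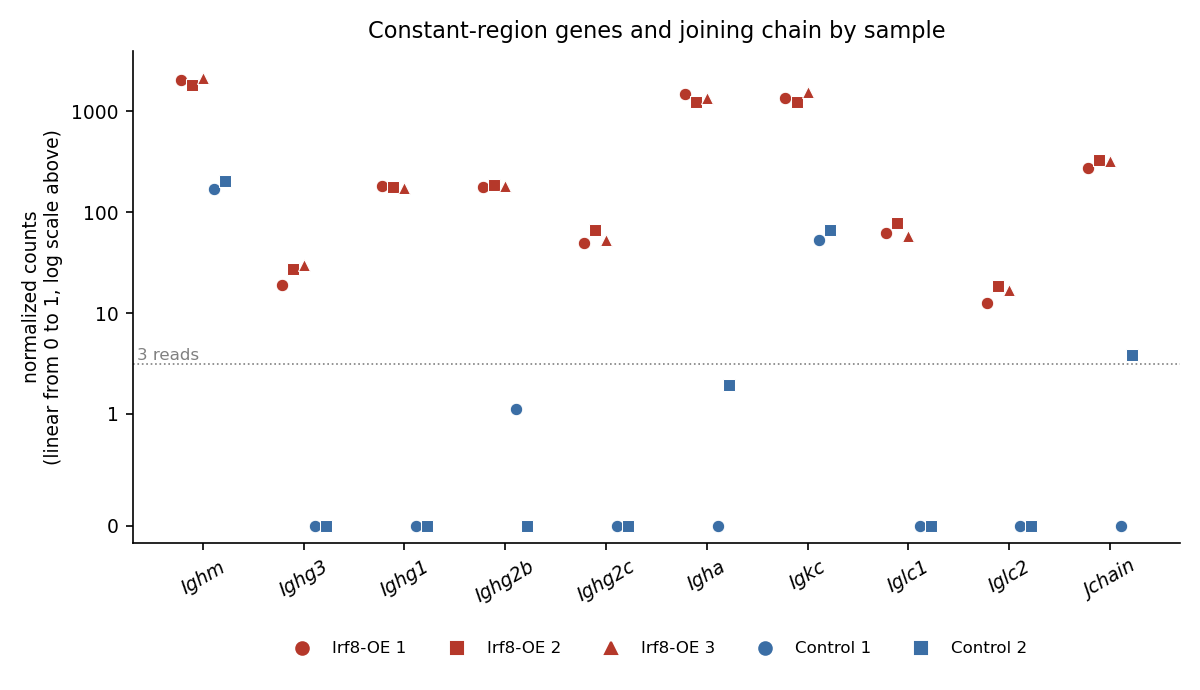
Normalized counts of the 10 genes in each of the 5 samples (vertical axis linear from 0 to 1 and logarithmic above), with *Irf8*-OE samples in red, controls in blue and a dotted line at the control floor of 3 reads. *Ighm* and *Igkc* stand well above the floor in both controls, *Jchain* stands just above it in 1 control, and the other 7 genes lie under it.

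*Ighm* (ENSMUSG00000076617, chr12:113418558-113422730, minus strand), the mu gene and the first constant gene that a B cell uses, stood at 2047, 1834 and 2169 normalized counts in *Irf8*-OE, against control values of 172 and 206. It was the most abundant member in reads, and the groups were far apart. The means were 2017 ± 170 (SD, n = 3) and 189 ± 24.3 (SD, n = 2), a 10.7-fold difference. The fitted log2 difference was 3.41 with a standard error of 0.11. *Ighm* was well above the floor in both controls too, on 153 and 215 reads.

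*Igha* (ENSMUSG00000095079, chr12:113254830-113260236, minus strand), which encodes the alpha chain of IgA, the antibody class of mucosal surfaces, had 1478, 1231 and 1360 normalized counts in *Irf8*-OE. The controls had 0 and 1.92, or 0 and 2 reads. The *Irf8*-OE mean was 1356 ± 124 (SD, n = 3). Reads were pooled over each group, 2 in all in the controls, and divided by the group's summed scaling factors. The ratio was then 1309, with an exact 95% counting interval of 362 to 10811. Alpha transcripts were thus abundant in every *Irf8*-OE sample and at or below the floor in both controls. Among the 137 listed genes that had at most 3 reads in each control, *Igha* had the second largest *Irf8*-OE mean, after *Xist*.

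The 4 gamma genes encode the heavy chains of the IgG subclasses. *Ighg1* (ENSMUSG00000076614, chr12:113325240-113330523, minus strand) had 181, 177 and 176 normalized counts in *Irf8*-OE, with 0 reads in both controls, so it was at least 57.0-fold higher against the mean control floor. *Ighg2b* (ENSMUSG00000076613, chr12:113302965-113307933, minus strand) had 178, 187 and 182 normalized counts against 1.12 and 0. Its ratio of pooled reads, scaled as for *Igha* and resting on that 1 control read, was 352. The exact 95% counting interval was 63.0 to 13936. These genes had nearly the same normalized counts, and the other gamma genes had fewer, per kb of length as well. *Ighg2c* (ENSMUSG00000076612, chr12:113285325-113288932, minus strand) had 49.8, 67.2 and 53.2 normalized counts, and *Ighg3* (ENSMUSG00000076615, chr12:113356224-113361232, minus strand) had 19.2, 27.1 and 30.1. Neither had a read in the controls, which makes them at least 18.2-fold and 8.15-fold higher.

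Gamma genes resemble each other, so the division of reads among them is uncertain. In the annotated transcripts 0 of the 45 pairs of members shared an identical window of 150 bases. The longest identical run was 88 bases, between *Ighg2b* and *Ighg3*, and runs between *Igha* and another heavy-chain member did not pass 12 bases. How reads that match several genes were counted is not stated in the sources used here, and the effect of shared runs on the counts was not tested.

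*Igkc* (ENSMUSG00000076609, chr6:70726435-70726966, plus strand), the only constant gene of the kappa light chain, stood at 1365, 1253 and 1574 normalized counts in *Irf8*-OE, against control values of 52.8 and 66.2. The means were 1397 ± 163 (SD, n = 3) and 59.5 ± 9.47 (SD, n = 2), a 23.5-fold difference, with a fitted log2 difference of 4.53 and a standard error of 0.14. Like *Ighm*, *Igkc* was therefore present in control BMDCs, on 47 and 69 reads. Its interval overlaps that of *Gm30211* on the same strand. Overlap of their exons was not checked, so whether reads of the pair can be told apart is not known.

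The lambda genes serve the light chain that mouse B cells use less often. *Iglc1* (ENSMUSG00000105906, chr16:19061618-19062071, minus strand) had 62.3, 78.4 and 58.3 normalized counts in *Irf8*-OE, with 0 reads in both controls, at least 21.2-fold higher. *Iglc2* (ENSMUSG00000076937, chr16:19198396-19200351, minus strand) had 12.5, 18.7 and 17.1 normalized counts, on 13, 20 and 17 reads, and 0 in the controls, at least 5.14-fold higher. *Iglc1* was above *Iglc2* in each of the 3 samples, also per kb of length. Whether the counting used strand is not stated, and *Iglc1* overlaps *2010309G21Rik* on the opposite strand while *Iglc2* overlaps *Iglj2* on the same strand.

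The starts of the lambda constant regions are shown because *Iglc2* and the unlisted *Iglc3* are close in sequence, while *Iglc1* is less like them. The division of reads between *Iglc2* and *Iglc3* is therefore uncertain too, and it was not tested. Each line gives 90 coding bases from the first stretch that the genes share (GENCODE vM21, GRCm38, minus strand), and capitals mark the 21 positions at which they are not all the same. The intervals are chr16:19061980-19062069 for *Iglc1*, chr16:19198761-19198850 for *Iglc2* and chr16:19065590-19065679 for *Iglc3*.
Iglc1: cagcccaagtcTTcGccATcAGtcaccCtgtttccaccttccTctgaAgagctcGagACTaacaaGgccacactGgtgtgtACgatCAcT
Iglc2: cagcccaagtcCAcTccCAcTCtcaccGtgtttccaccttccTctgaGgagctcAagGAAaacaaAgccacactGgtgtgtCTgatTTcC
Iglc3: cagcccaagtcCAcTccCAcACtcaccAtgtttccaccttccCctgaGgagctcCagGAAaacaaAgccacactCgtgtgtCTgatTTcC
Over the whole coding sequence *Iglc2* and *Iglc3* were identical at 96.5% of aligned bases, and *Iglc1* and *Iglc2* at 73.7%.

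*Jchain* (ENSMUSG00000067149, chr5:88519809-88527891, minus strand) had 278, 331 and 320 normalized counts in *Irf8*-OE. The controls had 0 and 3.84, the latter on 4 reads. The means were 309.9 ± 28.2 (SD, n = 3) and 1.92 ± 2.71 (SD, n = 2), a 161-fold difference. With the reads pooled and scaled as for *Igha* the ratio was 149.7. The exact 95% counting interval of 58.3 to 551 shows how little those 4 control reads fix the size of that ratio. *Jchain* was thus high in each *Irf8*-OE sample and close to the floor in the controls, as *Igha* was.

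Levels of different genes can be compared only after division by length, here the length listed for each gene. *Igkc* was highest at 2626 ± 306 normalized counts per kb (SD, n = 3), followed by *Ighm* at 1069 ± 90.1 and *Igha* at 508 ± 46.4, and the 3 samples of each of these genes did not overlap with those of the next. *Iglc1* at 146 ± 23.5 and *Jchain* at 123 ± 11.2 overlapped, and so did *Ighg1* at 68.7 ± 1.07 and *Ighg2b* at 68.1 ± 1.58. *Ighg2c* at 42.8 ± 6.95, *Iglc2* at 26.3 ± 5.27 and *Ighg3* at 10.1 ± 2.25 followed, each apart from the next. In the controls *Igkc* and *Ighm* were nearer each other, at 112 and 100 normalized counts per kb.

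The listed lengths of the heavy-chain genes include exons of the membrane forms, which matters for this order. With the length of the shortest annotated constant-region transcript, which encodes the secreted chain, *Ighm* reached 1351 ± 114 and *Igha* 1233 ± 113 normalized counts per kb (SD, n = 3), and their ranges overlapped. *Jchain*, divided by the length of its own shortest coding transcript, stood at 222 ± 20.3. That was above *Ighg1* at 166 ± 2.57 and *Iglc1* at 146 ± 23.5. Within each sample *Ighm* still stood above *Igha*. Which form the cells made was not measured, and the size of the gap between these genes depends on the length used.

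The heavy-chain genes lie in 1 row on the minus strand of chromosome 12. Measured between their 5′ ends, *Ighg3* lies 61.5 kb downstream of *Ighm*, *Ighg1* 92.2 kb, *Ighg2b* 115 kb, *Ighg2c* 134 kb and *Igha* 162 kb. Levels per kb did not follow distance, since the genes at the ends of the row, *Ighm* and *Igha*, were the highest and *Ighg3*, the listed gene nearest to *Ighm*, was the lowest of the listed genes.

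**Figure D2:**
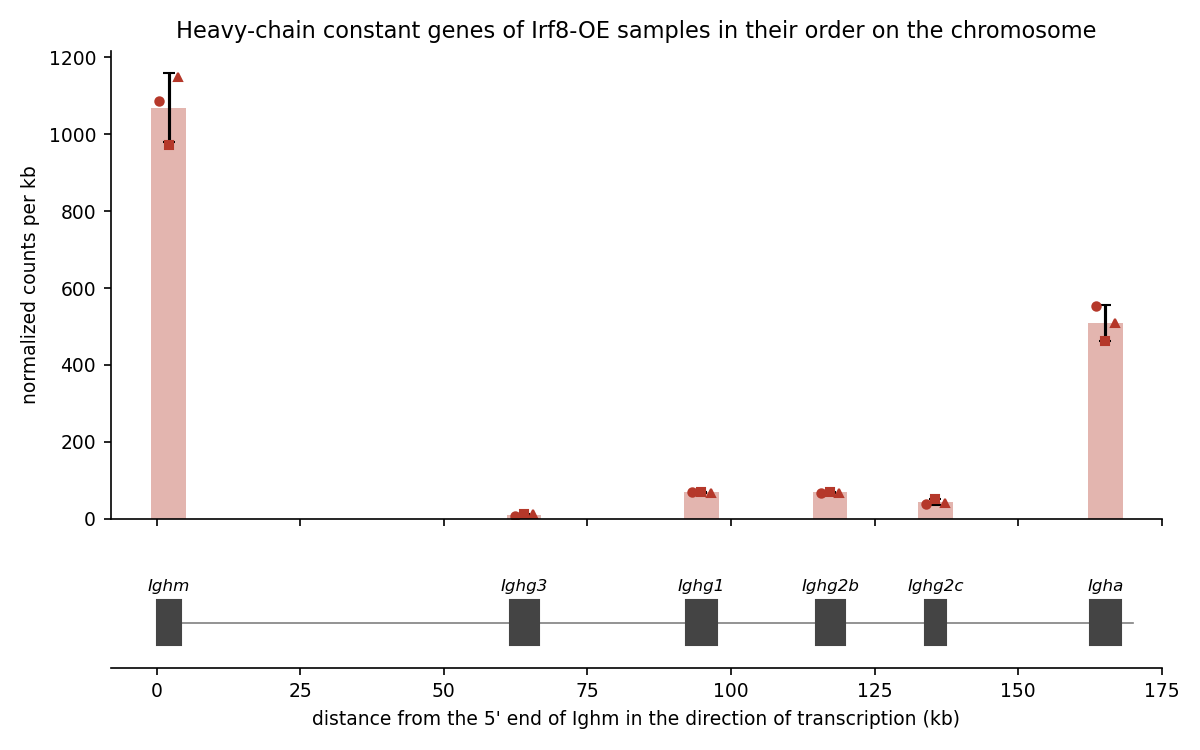
Upper panel, normalized counts per kb of listed length of the 6 heavy-chain genes in *Irf8*-OE (bars, mean; error bars, SD, n = 3; circle, square and triangle, samples 1, 2 and 3). Lower panel, the genes to scale by distance in kb from the 5′ end of *Ighm*; the bars of *Ighm* (1069) and *Igha* (508) at the ends exceed those of the 4 gamma genes (10.1 to 68.7) between them.

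The division of heavy-chain reads among classes was computed within each sample, over the listed heavy-chain genes only. The contrast with the controls chose those genes, and the unlisted *Ighd* and *Ighe* are not in the denominator. *Ighm* took 51.8%, 52.1% and 54.6% of the heavy-chain constant reads of *Irf8*-OE samples 1, 2 and 3, with Wilson 95% intervals that all overlapped. *Igha* took 37.4% (35.9 to 38.9), 34.9% (33.4 to 36.5) and 34.3% (32.8 to 35.7). The interval of sample 1 did not overlap with that of sample 3, a difference beyond counting error. The gamma genes together took 10.8% (9.92 to 11.8), 13.0% (12.0 to 14.1) and 11.1% (10.2 to 12.1), and samples 1 and 2 were apart.

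As means these shares were 52.8 ± 1.58% for *Ighm*, 35.5 ± 1.65% for *Igha* and 11.7 ± 1.19% for the gamma genes (SD, n = 3). Per kb of listed length they were 60.5 ± 1.55%, 28.7 ± 1.48% and 10.8 ± 1.25%. Among the listed classes mu was thus the leading one and alpha next in all 3 samples, on both scales. Within the gamma reads *Ighg1* held 40.3 ± 1.83% and *Ighg2b* 41.2 ± 0.44%, with *Ighg2c* at 12.8 ± 1.64% and *Ighg3* at 5.74 ± 1.19% (SD, n = 3). The intervals of the 3 samples overlapped for each of these 4 shares.

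The control samples had few reads on the listed heavy-chain genes, and nearly all of them were mu. Reads on the unlisted *Ighd* and *Ighe* are not known. *Ighm* took 153 of 154 reads in control 1, or 99.4% (Wilson 95% interval 96.4 to 99.9), and 215 of 217 in control 2, or 99.1% (96.7 to 99.7). The other reads were 1 of *Ighg2b* in control 1 and 2 of *Igha* in control 2.

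*Igkc* took 94.8% (Wilson 95% interval 93.6 to 95.8), 92.8% (91.4 to 94.0) and 95.4% (94.3 to 96.3) of the light-chain constant reads of *Irf8*-OE samples 1, 2 and 3, a mean of 94.3 ± 1.37% (SD, n = 3). Among the listed light-chain genes kappa was the main chain in each sample, and the intervals of samples 2 and 3 were apart. Per kb of listed length the *Igkc* share was 93.8 ± 1.52%. The unlisted *Iglc3* and *Iglc4* are not in these shares, so lambda may be undercounted, which was not tested. Within the lambda reads *Iglc1* held 80.5 ± 3.01% (SD, n = 3), and the intervals of the 3 samples overlapped.

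**Figure D3:**
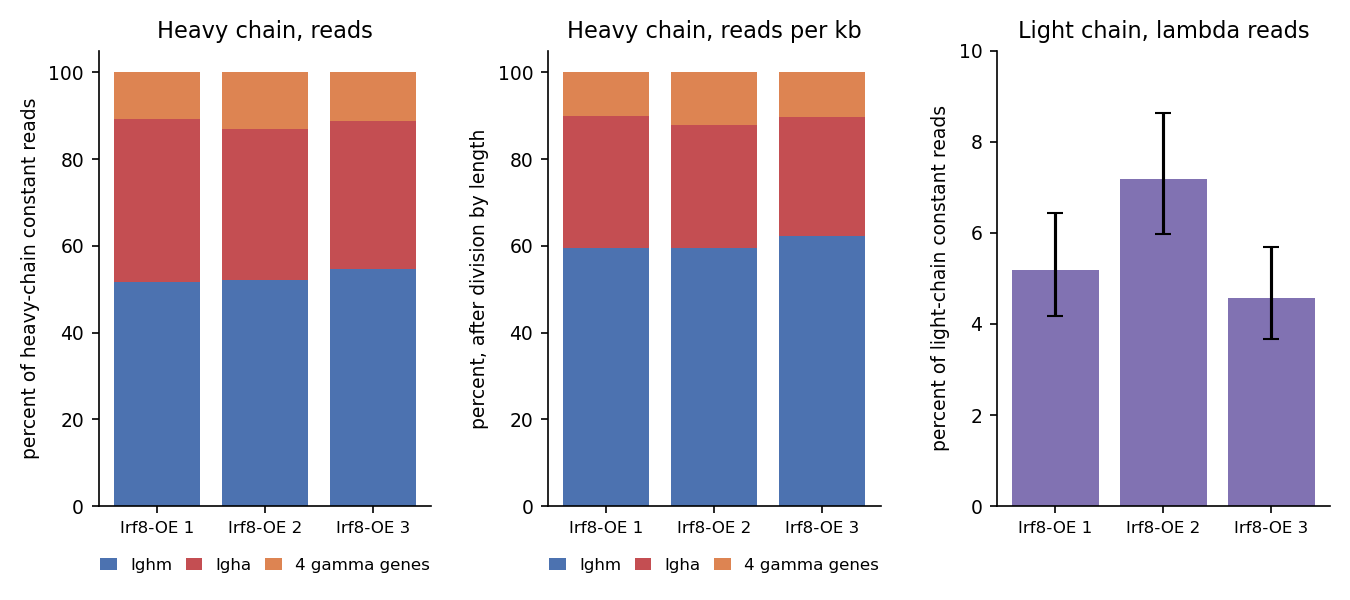
Percent of the reads on listed heavy-chain constant genes that fell on *Ighm*, *Igha* and the 4 gamma genes in each *Irf8*-OE sample (left, reads; middle, reads per kb of listed length), and lambda reads as a percent of the reads on listed light-chain constant genes (right, with Wilson 95% intervals; axis to 10%). The *Igha* band is 34.3% to 37.4% of the reads, and lambda reads are 4.57% to 7.19% of the light-chain reads.

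Light and heavy chains also stood in different proportions in the groups. *Igkc* had 0.667, 0.683 and 0.725 reads per *Ighm* read in *Irf8*-OE and 0.307 and 0.321 in the controls. Reads on all listed light-chain constant genes per read on the listed heavy-chain ones, each per kb of listed length, came to 1.50, 1.57 and 1.69 in *Irf8*-OE. In the controls they came to 1.08 and 1.13. These ratios come from the contrast that chose the genes and are given without a test.

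The joining chain pairs with alpha and mu chains, and its reads were set against theirs sample by sample. There were 0.188, 0.269 and 0.236 *Jchain* reads per *Igha* read in *Irf8*-OE samples 1, 2 and 3, a mean of 0.231 ± 0.0408 (SD, n = 3). Per *Ighm* read there were 0.136, 0.181 and 0.148, a mean of 0.155 ± 0.0233. Sample 1 had the most *Igha* and the least *Jchain*, and sample 2 the least *Igha* and the most *Jchain*, so the levels of these genes did not order the samples alike. Over *Igha* and *Ighm* together, the chains with the tailpiece cysteine shown above, *Jchain* had 0.0788, 0.108 and 0.0908 reads per read. With 3 samples no correlation was computed.

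In the controls the ratio of *Jchain* to *Ighm* reads was 0 of 153 reads in control 1 and 4 of 215, or 0.0186, in control 2. Control BMDCs thus held mu and kappa reads with next to no *Jchain* reads.

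The spread over the *Irf8*-OE samples differed by gene. Among the 3 genes with the most reads the coefficient of variation was 11.7% for *Igkc*, 8.43% for *Ighm* and 9.13% for *Igha*, where counting error alone would give 2.63%, 2.19% and 2.67%. *Jchain* varied by 9.11% against a counting error of 5.58%. *Ighg1* at 1.55% and *Ighg2b* at 2.33% varied less than their counting errors of 7.36% and 7.27%. The rest, at 16.1% to 22.2%, were near counting errors of 12.0% to 24.5%. Sample 2 was the lowest of the 3 for *Ighm*, *Igkc* and *Igha* and the highest for *Jchain*, *Iglc1*, *Iglc2*, *Ighg2b* and *Ighg2c*, so no single factor per sample would align all members.

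**Figure D4:**
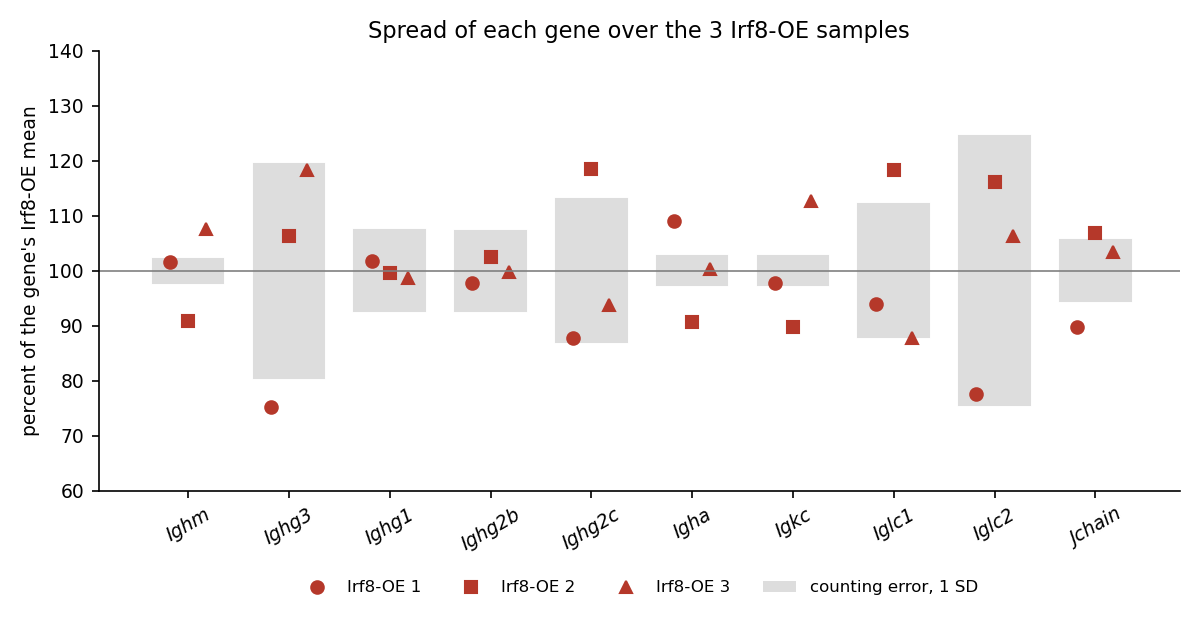
Each gene's normalized counts in the 3 *Irf8*-OE samples as a percent of its own mean (vertical axis from 60% to 140%), with grey boxes for 1 SD of counting error. Points of *Igkc*, *Ighm* and *Igha* leave their boxes, and all points of *Ighg1* and *Ighg2b* stay inside.

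Variable segments encode the antigen-binding part that sits on the same transcript as the constant region. The list held 51 of them, 22 heavy, 27 kappa and 2 lambda. Of these 20, 27 and 2 were higher in every *Irf8*-OE sample, beside 58.8% of all listed genes. The most read were *Ighv6-3* (77.6, 123 and 140 normalized counts in *Irf8*-OE against 13.5 and 19.2), *Igkv10-96* (205, 212 and 246, with 0 in both controls) and *Iglv1* (99.7, 83.1 and 105, with 0 in both controls). After these came *Ighv1-5* and *Ighv3-6* for the heavy chain, *Igkv15-103* and *Igkv2-109* for kappa, and *Iglv2* for lambda, whose means ran from 11.5 to 83.9 normalized counts. In the lambda locus, where only 2 segments were listed, *Iglv1* held 89.2% of the segment reads. The leading segments of the other loci held smaller shares, 20.1% for *Ighv6-3* and 31.5% for *Igkv10-96*.

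Summed per locus, listed heavy-chain segments had 0.135, 0.166 and 0.143 reads per heavy-chain constant read in *Irf8*-OE, a mean of 0.148 ± 0.0161 (SD, n = 3). Kappa segments had 0.506 ± 0.0614 reads per *Igkc* read and lambda segments 1.34 ± 0.292 reads per lambda constant read. In reads the heavy-chain ratio was the lowest in each of the 3 samples and the lambda ratio the highest. The unlisted *Iglc3* and *Iglc4* are not in the lambda denominator, and their effect on the ratio was not tested. Lambda segments had 115, 104 and 115 reads in samples 1, 2 and 3, and kappa segments had 706, 767 and 705. Lambda thus held a larger part of these segment reads than of the light-chain constant reads. Per kb of listed length the ratios were 0.874 ± 0.0945 for heavy, 0.734 ± 0.0895 for kappa and 1.65 ± 0.36 for lambda (SD, n = 3), and there heavy stood above kappa in each sample. In the controls the heavy-chain ratio was 3.20 and 2.68. *Ighv1-23* made up most of those control reads, with 518 and 523 normalized counts in the controls and 30.7, 33.6 and 35.2 in *Irf8*-OE, the direction opposite to the constant genes. It is named here after its values were seen.

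Markers of antibody-producing cells were counted beside the members. Of 25 plasma cell markers 5 were listed, 3 higher and 2 lower in *Irf8*-OE, beside 58.8% of all listed genes that were higher. *Mzb1*, which encodes a chaperone of antibody assembly, had 19.2, 25.2 and 15.1 normalized counts against 0 and 2.88. Its ratio of pooled reads, scaled as for *Igha*, was 12.8 on 3 control reads, with an exact 95% counting interval of 4.19 to 63.9. *Pou2af1*, a coactivator of B lineage transcription, had 22.0, 20.5 and 18.1 against 1.12 and 0.96, and *Prdm1*, which encodes the plasma cell regulator Blimp-1, had 145, 150 and 174 against 84.3 and 71.0. *Pim2*, a kinase gene, had 173, 168 and 156 against 480 and 450, and *Sel1l3* had 20.1, 18.7 and 26.1 against 169 and 204. The summed level of the listed plasma cell markers was 380 to 389 normalized counts in *Irf8*-OE and 734 and 729 in the controls. *Pim2* and *Sel1l3* made up most of that control sum. Among the other plasma cell markers, *Sdc1*, *Xbp1*, *Irf4* and *Tnfrsf17* were not listed and are not analysed here.

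Of 26 B cell marker symbols 8 were listed. *Cd79a*, *Cd79b*, *Ebf1*, *Tnfrsf13c*, *Bcl11a* and *Ly6d* were higher in *Irf8*-OE, as 58.8% of all listed genes were, and *Bank1* and *Cd37* were lower. *Cd79a*, which encodes a signalling partner of surface antibody, had 41.2, 22.4 and 22.1 normalized counts against 5.62 and 6.72. Its partner *Cd79b* had 39.3, 33.6 and 37.2 against 13.5 and 13.4. The differences, 4.63-fold and 2.73-fold, were smaller than those of *Ighm* and *Igkc*. *Ebf1*, a transcription factor of early B cells, had 51.8, 45.7 and 59.3 against 18.0 and 16.3. *Tnfrsf13c*, a receptor for a B cell survival factor, had 16.3, 18.7 and 25.1 against 0 and 4.80, while *Bcl11a* had 46.0, 48.5 and 64.3 against 21.4 and 18.2. *Cd37*, a membrane protein of many leukocytes, had 1145, 1070 and 1078 against 2643 and 2550, and *Bank1*, a B cell adaptor, had 72.8, 70.0 and 80.3 against 140 and 178. The summed level of the list, set mostly by *Cd37*, was 1335 to 1424 in *Irf8*-OE and 2842 and 2792 in the controls.

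Other cell types were counted in the same way. All 6 of the listed genes among 15 T cell markers (*Cd3e*, *Cd4*, *Trbc1*, *Trbc2*, *Lck* and *Cd2*) were higher in *Irf8*-OE, beside 58.8% of all listed genes. Their summed level was 101 to 125 normalized counts against 16.9 and 29.7. *Lck* (44.1, 38.3 and 49.2) and *Cd4* (26.8, 24.3 and 29.1) made up most of the *Irf8*-OE sum. *Cd3e* and *Trbc1* were each at 1.92 in *Irf8*-OE sample 1, under the floor of 3 reads. Of 14 markers of plasmacytoid dendritic cells *Siglech*, *Ly6d* and *Ly6c2* were listed and higher, with a summed level of 3920 to 4201 against 1324 and 1194, nearly all of it *Ly6c2*. *Siglech* itself had 14.4, 14.9 and 15.1 normalized counts and 0 in both controls. *Lef1* was the only listed gene of 10 B cell precursor markers, with 4.79, 5.60 and 10.0 normalized counts against 24.7 and 24.0. The part of any of these cell types in the levels of the constant genes was not tested.

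**Figure D5:**
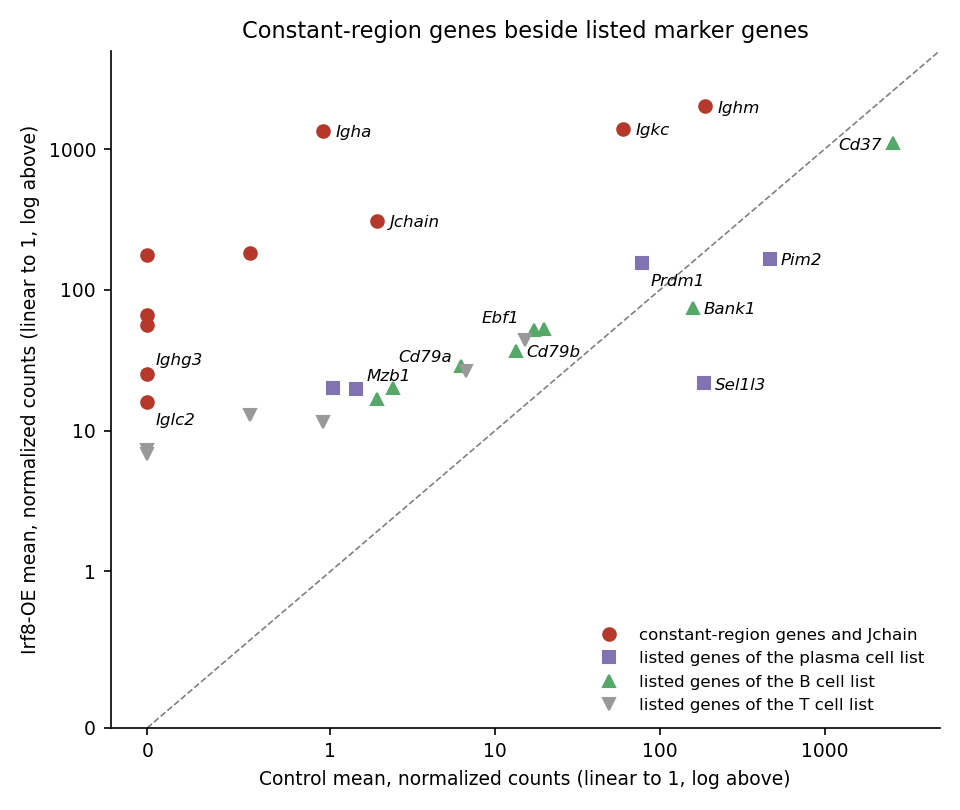
*Irf8*-OE mean against control mean in normalized counts (both axes linear to 1 and logarithmic above; dashed line, equal levels) for the 10 members and for the listed genes of the plasma cell, B cell and T cell lists. All members lie above the line, *Igha* with an *Irf8*-OE mean of 1356 among them, while *Pim2*, *Sel1l3*, *Bank1* and *Cd37* lie below it.

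The genes with the profile nearest to that of *Igha* were found by the Euclidean distance of log2(normalized counts + 1), centred per gene, over the 5 samples, among 1285 listed genes that are no immunoglobulin genes and had at least 20 reads. They included *Epx* at 3.59, *Mpo* at 3.68, *Xist* at 4.21 and *Clca3a1* at 4.61 log2 units. *Epx* and *Mpo* encode peroxidases of granulocytes and their precursors. Among the members *Ighg1* at 2.60, *Jchain* at 2.80 and *Ighg2b* at 3.46 were nearer. For *Jchain* the nearest among those listed genes were *Mpo* at 1.71, *Epx* at 1.81, *Rtn1* at 2.95, *Gbx2* at 3.00 and *Aldh1a1* at 3.03. Of the members *Ighg1*, at 1.67, was nearer than *Mpo*. *Iglc1* at 2.01, *Ighg2c* at 2.16, *Ighg2b* at 2.39 and *Igha* at 2.80 lay between *Epx* and *Rtn1*. The other members were further off than *Aldh1a1*. *Mpo* had 997, 1048 and 943 normalized counts in *Irf8*-OE against 10.1 and 11.5. This distance is set mainly by the difference between the groups, which chose every gene of the list.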

How the data were processed

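RNA-seq of 5 BMDC samples was analysed from the table that the authors deposited, which holds genes already called different between *Irf8*-OE and control. Its signal values are the authors' normalized counts, reads per gene divided by a size factor per sample. The submitters' processing notes name fastp, HISAT2 2.0.5, featureCounts 1.5.0-p3, DESeq2 1.20.0, edgeR 3.22.5 and mm10, with no role given. The table's fold changes and p-values were not used. Groups followed the sample titles.

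Reads were recovered as values divided by the sample's step (0.934 to 1.12), with 100% of the values whole multiples within 1e-06. For *Irf8*-OE sample 3 the step is 1.004, too near 1 for this to show recovery, and its reads are used on that condition. Replicates differed by more than sampling noise, so each sample counted once. All 1355 genes were fitted on log2(normalized counts + 1) with limma 3.58.1 in R 4.3.3, using a trended prior and no covariates. A gene was called where its Benjamini-Hochberg adjusted p was under 0.05 and its log2 difference exceeded 1 in size. Shares and ratios used recovered reads, Wilson intervals and exact binomial intervals (scipy 1.17.1) at 95%. Ratios of reads pooled over each group were divided by the ratio of the groups' summed size factors. Lengths are those listed. All 10 members had the same coordinates in GENCODE vM21, the source of the sequences, whose lambda coding regions were aligned with Biopython 1.88.

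The members and gene lists were chosen with earlier results of these data known. The genes named were *Irf8*, every member, the 3 most read variable segments per locus, every listed marker, and the 5 nearest profiles to *Igha* and to *Jchain*, plus a few named after their values were seen (*Ighv1-23*, *Itgae* and *Cd24a*), and 1 gene and 1 list of this rule are not reported here. The lists covered plasma cells, B cells, B cell precursors, plasmacytoid dendritic cells, T cells, and plasma cell survival or alpha switching. Alternatives were other pseudocounts, a filter, scalings, lengths, denominators, a replicate block, a stricter threshold, leaving out samples, and count tests on recovered reads.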

Additional observations from a re-analysis of the deposited data

How the results depend on the processing

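The list was selected on this contrast, so the count of members past the limma thresholds, 10, was set by that selection and its stability supports nothing. It was 10 with pseudocounts of 0.1 and 10, a filter of 10 normalized counts, quantile normalization, scaling to the listed genes other than immunoglobulin genes, an absolute log2 threshold of 2, and leaving out each sample (10 to 10). With the replicate number of the sample titles as a block the count was 10 as well. Deviations of samples with the same title number were hardly correlated (0.0275 and 0.0207). The third *Irf8*-OE sample, alone in its block, does not enter the estimate. The deposited columns number the controls differently from the titles, and a match by those numbers was not examined. The planned edgeR and DESeq2 fits on all 5 samples were not run, because 1 read of *Irf8*-OE sample 3 is worth so nearly 1 normalized count that whole multiples cannot show that its reads were recovered. Without that sample, an alternative added after seeing the data, edgeR and DESeq2 each called 10 members, and 1322 and 1304 of all 1355 genes. Over all genes 1343 were called (787 higher and 556 lower), 518 at the threshold of 2, 1031 after quantile normalization (509 and 522), and 1068 after the scaling (797 and 271). The median log2 difference of all genes moved from 1.14 to 0.79 after quantile normalization and to 1.81 after the scaling, and that of the members from 5.95 to 4.51 and 6.25. With a pseudocount of 10 the smallest member difference, of *Iglc2*, was 1.37. Leaving out control 1 or control 2 moved *Jchain* between 6.00 and 8.28, *Ighg2b* between 6.43 and 7.52, and *Igha* between 8.86 and 10.40, and the few control reads limit all 3. Per kb, the alpha share of heavy-chain reads was 28.7%, and it was 35.5% without division by length, 32.2% without gamma genes and 41.2% with the shortest transcripts, a length chosen after seeing the data. *Jchain* reads per *Igha* read, 0.231, became 0.0817 over all heavy-chain genes, 0.0926 over *Igha* plus *Ighm*, and 0.182 per kb of the shortest transcripts, the last also added later. Variable segments with at least 10 reads gave 0.119 reads per constant read for heavy and 0.433 for kappa. Leaving out each *Irf8*-OE sample gave 27.9% to 29.3% for alpha, 93.8% to 95.1% for kappa, 0.212 to 0.252 for *Jchain* per *Igha*, and 0.139 to 0.155, 0.473 to 0.534 and 1.24 to 1.50 for heavy, kappa and lambda segments.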

Other observations

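Genes around antibody secretion were looked at beside the members. Of 14 genes for plasma cell survival or switching to alpha, 6 were listed. *Cxcl12*, a chemokine that retains plasma cells in marrow, had 469, 461 and 442 normalized counts in *Irf8*-OE against 77.5 and 106, a 4.99-fold difference. *Tnfsf13*, which encodes the survival factor APRIL, had 142, 131 and 123 against 68.6 and 50.9, a 2.21-fold difference. Both were higher in every *Irf8*-OE sample, as 58.8% of all listed genes were. *Il6*, a cytokine that supports plasma cells, had 318, 332 and 418 against 804 and 715. *Aldh1a2*, an enzyme of retinoic acid synthesis, had 1453, 1646 and 1548 against 3227 and 3482. *Il4* and *Il13*, type 2 cytokines, were lower as well, by 2.05-fold and 2.17-fold. The list thus held genes of both directions.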
